A study of Mus musculus with 45 samples.

Results

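The enzymes that write, copy and remove DNA methylation were read out in mouse embryonic stem cells (ESCs) before and after retinoic acid (RA) treatment. The set holds 9 genes, chosen by name, though with earlier results of these data known: Dnmt1, Dnmt3a, Dnmt3b, Dnmt3l, Uhrf1, Tet1, Tet2, Tet3 and Tdg. Each symbol was found in both expression tables, among the 33924 genes that each table lists, and all 9 passed into every test. The cells were D3 ESCs in which the long noncoding RNA gene 5430416N02Rik had been deleted in one of 2 ways. In ΔG cells the gene body was replaced by a GFP-IRES-Puro cassette, and in ΔPG cells the promoter and the gene body were replaced by a PGK-puro cassette. Each deletion was studied in heterozygous (het) and homozygous (hom) lines, so every sample carries at least 1 deleted allele and a cassette, and no wild-type sample is compared. Cells were kept for 48 h in the vehicle DMSO (ES) or in 2 µM RA (RA), with 3 biological replicates in each of 8 groups, 24 samples in all. The study made more than 1 clone of each genotype, and the labels do not say which clone a sample came from, so that a difference between het and hom cells cannot be told apart from a difference between clones.

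Cytosine methylation at CG dinucleotides (CpG) is set up by the de novo methyltransferases DNMT3A and DNMT3B, with DNMT3L as a partner that has no catalytic activity of its own. It is copied after DNA replication by DNMT1, which UHRF1 brings to hemimethylated sites. The TET enzymes oxidize 5-methylcytosine, and the glycosylase TDG cuts out the more oxidized bases so that repair can restore an unmodified cytosine. ESCs are known for high levels of TET1, TET2 and DNMT3L, and TET3 is better known from the oocyte, the zygote and differentiating cells.

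The 9 genes lie on 7 autosomes, with positions given here for the annotation on NCBIM37 that the values were counted on. Dnmt1 lies at chr9:20711650-20757317 on the minus strand and Uhrf1 at chr17:56442744-56462909 on the plus strand. Dnmt3a lies at chr12:3806007-3914443, Dnmt3b at chr2:153475186-153513466 and Dnmt3l at chr10:77504692-77526367, all on the plus strand. Tet1 lies at chr10:62267318-62361866, Tet2 at chr3:133126643-133207354 and Tet3 at chr6:83312367-83391672, all on the minus strand, and Tdg lies at chr10:82092573-82113544 on the plus strand. The values are summed per gene over all exons, so they do not separate isoforms that begin at different starts, of which the RefSeq promoter table lists 3 each for Dnmt1, Dnmt3a and Dnmt3l, 2 for Uhrf1 and 1 each for the other 5 genes.

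The 250 bases before 5 of these starts are shown because the genes behind them were called in all 4 lines under RA, Tet1, Tet2 and Uhrf1 downward and Tet3 and Dnmt3a upward. Dnmt3l was also called in all 4 lines, and its windows are described by their CpG counts alone. The sequences are those of RefSeq on GRCm38.p6, written 5′ to 3′ on the strand of the gene, with each CG in capitals. They lie at chr10:62887325-62887574 for Tet1, chr3:133544391-133544640 for Tet2, chr6:83441679-83441928 for Tet3, chr17:56304063-56304312 for Uhrf1 (the second of its starts) and chr12:3806730-3806979 for Dnmt3a (the first of its starts).
Tet1: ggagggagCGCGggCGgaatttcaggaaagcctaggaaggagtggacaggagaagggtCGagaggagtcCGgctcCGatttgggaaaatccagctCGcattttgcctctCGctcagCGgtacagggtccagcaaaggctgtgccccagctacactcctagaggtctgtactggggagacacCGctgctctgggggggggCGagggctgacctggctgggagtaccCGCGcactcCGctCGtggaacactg
Tet2: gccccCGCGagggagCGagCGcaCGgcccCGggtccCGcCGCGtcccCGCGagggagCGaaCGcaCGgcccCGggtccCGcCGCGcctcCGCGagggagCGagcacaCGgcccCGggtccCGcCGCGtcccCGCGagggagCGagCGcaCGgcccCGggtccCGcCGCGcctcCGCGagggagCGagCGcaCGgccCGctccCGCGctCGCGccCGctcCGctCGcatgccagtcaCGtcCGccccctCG
Tet3: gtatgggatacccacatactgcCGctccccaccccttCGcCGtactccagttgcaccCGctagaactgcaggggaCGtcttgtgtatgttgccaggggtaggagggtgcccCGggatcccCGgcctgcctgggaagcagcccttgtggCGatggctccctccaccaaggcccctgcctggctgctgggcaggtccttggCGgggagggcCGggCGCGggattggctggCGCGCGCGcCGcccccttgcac
Uhrf1: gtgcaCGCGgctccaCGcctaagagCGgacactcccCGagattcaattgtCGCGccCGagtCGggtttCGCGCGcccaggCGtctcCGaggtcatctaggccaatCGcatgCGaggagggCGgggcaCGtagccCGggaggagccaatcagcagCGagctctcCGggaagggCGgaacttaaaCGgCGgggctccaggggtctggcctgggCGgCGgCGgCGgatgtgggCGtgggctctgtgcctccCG
Dnmt3a: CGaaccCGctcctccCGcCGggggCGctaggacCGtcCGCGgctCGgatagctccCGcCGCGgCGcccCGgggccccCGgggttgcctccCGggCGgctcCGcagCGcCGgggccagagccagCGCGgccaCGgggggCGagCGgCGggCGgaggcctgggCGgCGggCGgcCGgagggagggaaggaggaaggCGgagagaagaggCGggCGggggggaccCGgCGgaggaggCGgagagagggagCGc

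CpG content of these windows did not separate the genes that rose from those that fell. The Tet2 window held 51 CpGs, more than nearly all of the 32851 promoter windows of this length (percentile 99.9), while the Tet1 window held 15 and the Tet3 window 17 (percentiles 73.6 and 77.4). The Uhrf1 window held 30 CpGs and the Dnmt3a window 38 (percentiles 94.4 and 98.3), against a median of 6 over all windows. All 3 listed Dnmt3l windows lay a little under that median, with 3 to 5 CpGs (percentiles 33.4 to 47).
An E2F-type motif (TTTCCCGC, TTTCGCGC, TTTGCCGC or TTTGGCGC, on either strand), as found before many genes of DNA replication, was present in 1.86% of all windows. Among the 16 windows of the members it was present in 2, that of Uhrf1 shown above (TTTCGCGC, 185 bases before the start) and 1 of Dnmt1. The hexamer AGGTCA, which nuclear receptors such as the RA receptors bind, was present on either strand in 14% of all windows. It was present in the window of Tet1, in that of Uhrf1 shown above and in the third of Dnmt3a, and no member window held a pair of these hexamers in direct repeat 5 bases apart (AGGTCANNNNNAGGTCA, 0.00913% of all windows).

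The values are regularized log values (rlog, log2 scale), normalized within each table of 12 samples, so that ΔG and ΔPG were each tested on their own and are set side by side without a test. Differences were tested with limma across 22048 genes (ΔG) or 21979 genes (ΔPG). A call needed an adjusted p (Benjamini-Hochberg) under 0.1 together with a log2 difference of more than 0.5 in either direction. In the text "rose" and "fell" are used for called genes. With 3 against 3 samples an exact permutation test of a single gene cannot go below p = 0.1, so for single genes the overlap of the samples is given. The targeted gene followed the labels. 5430416N02Rik lay at 5.50 to 5.64 in the 6 het and 2.63 to 3.08 in the 6 hom ΔG samples, and at 3.80 to 4.62 in the 6 het and 2.12 to 2.66 in the 6 hom ΔPG samples. Cell identity also followed the labels. Of 9 measured genes of undifferentiated ESCs, 8 or 9 fell under RA in each line, Pou5f1 and Nanog among them, and all 10 genes of the RA response rose. Markers of other cells rose at the same time, with 8 of 9 genes of extraembryonic endoderm and 3 of 5 measured neural genes. Of 7 fibroblast genes 5 to 6 rose. Over all tested genes 16.5% to 18% were called higher. The endoderm exception, Hnf4a, fell in hom ΔPG, and 1 fibroblast gene fell in het ΔPG and in hom ΔPG. Log2 of the summed endoderm markers was 8.79 to 9.73 in ES and 11.4 to 12.7 in RA samples, with none of these markers at 0 throughout. In such bulk samples, fewer cells of one type and less RNA per cell cannot be told apart.

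**Figure D1:**
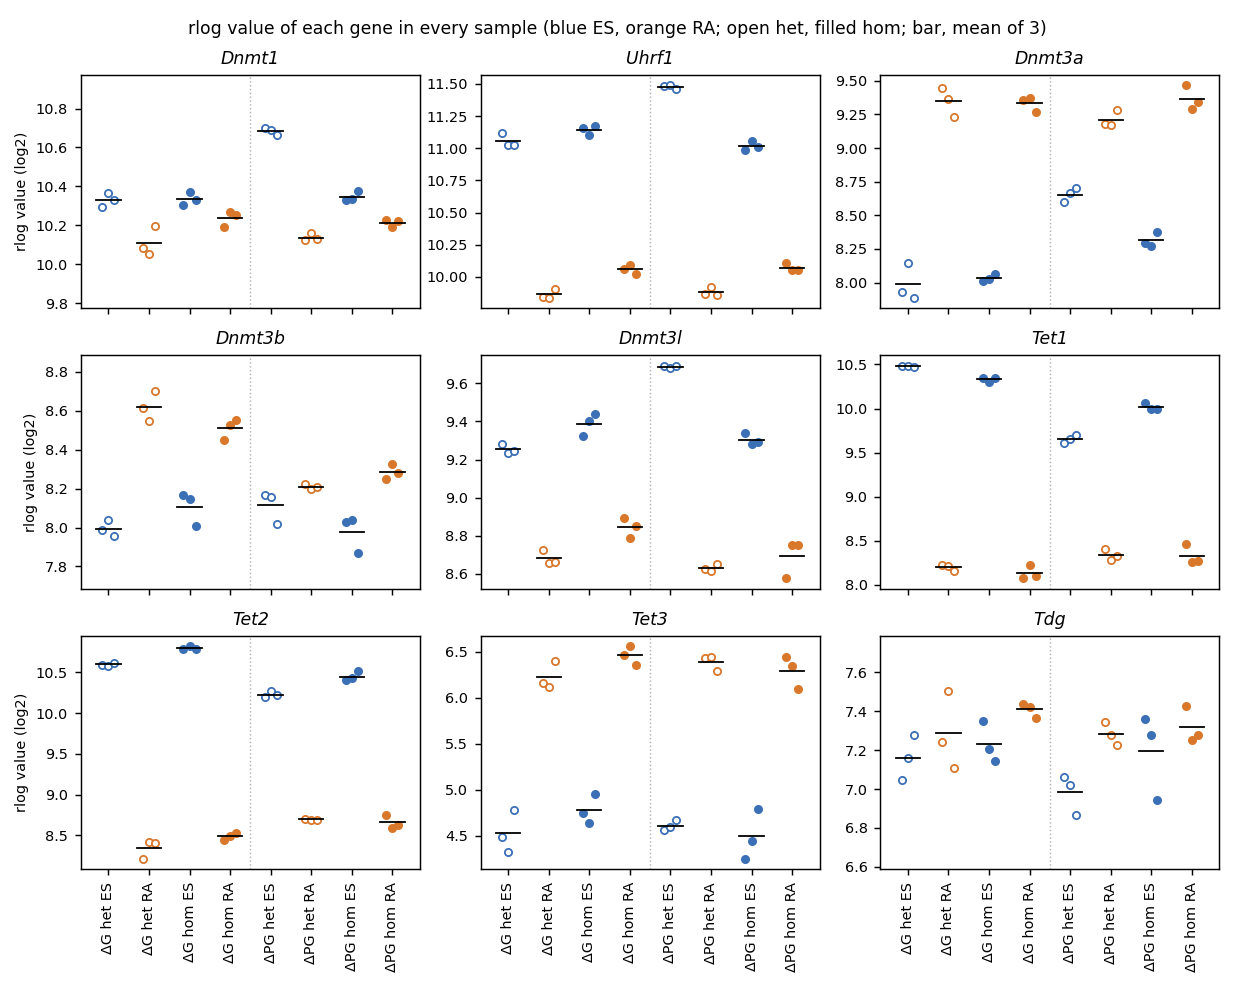
Each panel shows 1 gene, with the rlog value (log2 scale) of every sample on the y axis and the 8 groups on the x axis (blue ES, orange RA, open symbols het, filled symbols hom, bars the means of 3 samples). Tet1, Tet2 and Uhrf1 lie lower in every RA than in every ES sample of the same table, Tet3 and Dnmt3a lie higher, and Tdg stays between 6.87 and 7.51. The y axes differ between panels.

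RA moved 6 of the 9 members in the same direction in all 4 lines. Tet1, Tet2, Uhrf1 and Dnmt3l fell and Tet3 and Dnmt3a rose in het and hom ΔG and in het and hom ΔPG cells. Dnmt3b rose in het ΔG only among the calls, Dnmt1 fell in het ΔPG only among the calls, and Tdg was called in no line. In het ΔG, 3 members rose and 4 fell, against 17.7% of all tested genes called higher and 11.7% called lower. In hom ΔG, 2 rose and 4 fell (all genes, 17% higher and 12.1% lower). In het ΔPG, 2 rose and 5 fell (18% and 13.6%), and in hom ΔPG, 2 rose and 4 fell (16.5% and 11.3%). The members are all expressed genes, and among genes whose mean rlog value was 3 or more the share called in either direction was larger, at 45.5% in het ΔG, 46.4% in hom ΔG, 49.4% in het ΔPG and 42.6% in hom ΔPG. These shares correspond to about 4 of 9 genes. After quantile normalization the calls over all genes were more even in direction, with 3042 higher and 3304 lower in het ΔG in place of 3911 and 2588, 2941 and 3305 in hom ΔG in place of 3759 and 2675, and 2864 and 2960 in hom ΔPG in place of 3634 and 2482.

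**Figure D2:**
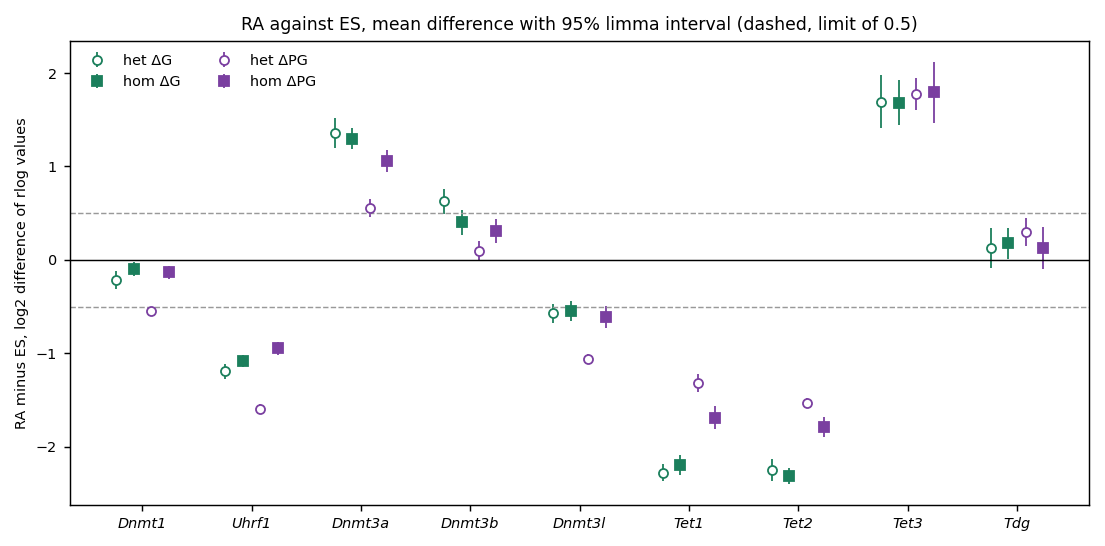
The x axis lists the 9 genes and the y axis gives the log2 difference of RA minus ES in each of 4 lines (open circles het, filled squares hom; green ΔG, purple ΔPG), with vertical bars for the 95% limma interval and dashed lines at the limit of 0.5. Tet1, Tet2, Uhrf1 and Dnmt3l lie below and Tet3 and Dnmt3a above the limits in all 4 lines.

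Among the genes of maintenance methylation, Uhrf1 fell and Dnmt1 stayed near its level. Uhrf1, the reader of hemimethylated DNA that recruits DNMT1, lay at 11.12, 11.03 and 11.03 in the 3 het ΔG ES samples and at 9.85, 9.84 and 9.91 in RA. It lay at 11.16, 11.10 and 11.18 in hom ΔG ES and at 10.06, 10.09 and 10.03 in RA. The samples of the 2 conditions did not overlap, and the difference was -1.19 ± 0.038 (SE) in het and -1.08 ± 0.032 in hom ΔG cells (limma adjusted p = 1.62e-11 and 6.42e-15), a decrease of 2.29-fold and 2.12-fold. In ΔPG cells Uhrf1 went from 11.49, 11.49 and 11.46 to 9.87, 9.92 and 9.86 in het cells, and from 10.99, 11.06 and 11.01 to 10.11, 10.05 and 10.05 in hom cells. The het ES samples started higher than the hom ES samples, and the falls were -1.60 ± 0.022 and -0.95 ± 0.031 (limma adjusted p = 4.69e-09 and 7.02e-10).
Dnmt1, the maintenance methyltransferase, moved far less. Its mean was 10.33 ± 0.038 (SD, n = 3) in het ΔG ES and 10.11 ± 0.077 in RA, and 10.34 ± 0.034 and 10.24 ± 0.041 in hom ΔG. The log2 differences were -0.22 and -0.10 in ΔG and -0.13 in hom ΔPG, all under the limit, and with quantile normalization they were 0.04, 0.16 and 0.12, so no direction is given for them. Only het ΔPG gave a call, from 10.70, 10.69 and 10.67 in ES to 10.12, 10.16 and 10.13 in RA, a difference of -0.55 ± 0.019 (limma adjusted p = 3.45e-07). That call was lost after quantile normalization (-0.29) and after removal of a trend with GC content (-0.36). Among 16 genes of S phase, which Dnmt1 and Uhrf1 are known to follow in the cell cycle, 9 fell in each line and 1 rose in het ΔPG. Of all tested genes 11.3% to 13.6% were called lower, and of those with a mean rlog of 3 or more 42.6% to 49.4% either way. The S phase genes had a median of -0.54 to -0.52, and log2 of their summed level went from 13.8 to 14.1 in ES to 13.3 to 13.4 in RA. Whether this bears on the fall of Uhrf1 was not tested. Uhrf1 shares 11% of its 50-base exonic words with the pseudogene Gm5648, whose rlog values were -1.59 to -1.14 in all samples.

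The de novo genes moved apart from each other. Dnmt3a, which methylates new sites in differentiating cells, lay at 7.93, 8.15 and 7.89 in het ΔG ES and at 9.45, 9.37 and 9.23 in RA. In hom ΔG it lay at 8.01, 8.03 and 8.07 and then at 9.36, 9.37 and 9.27. The samples did not overlap, and Dnmt3a rose by 1.36 ± 0.076 (2.57-fold) and 1.30 ± 0.054 (2.46-fold; limma adjusted p = 4.18e-09 and 7.55e-13). In ΔPG it rose from 8.60, 8.67 and 8.70 to 9.18, 9.17 and 9.28 in het cells, and from 8.29, 8.27 and 8.37 to 9.47, 9.29 and 9.34 in hom cells. The rise in het ΔPG, 0.56 ± 0.042 (1.47-fold; limma adjusted p = 1.74e-05), was close to the limit, and that in hom ΔPG was 1.05 ± 0.054 (limma adjusted p = 2.29e-08).
Dnmt3b, the de novo enzyme of the early embryo, went from a mean of 7.99 ± 0.040 (SD, n = 3) to 8.62 ± 0.077 in het ΔG and rose by 0.63 ± 0.060 (1.54-fold; limma adjusted p = 1.07e-06). Its difference was 0.40 in hom ΔG, 0.31 in hom ΔPG and 0.10 in het ΔPG, none of them past the limit, and RA samples lay above ES samples without overlap in each. The difference between het and hom ΔG was itself -0.22 (95% interval -0.41 to -0.04; limma adjusted p = 0.213), so the lines were not shown to differ. Dnmt3b shares 8.49% of its 50-base words with the pseudogene Gm14490, which lay below 0 in all samples.
Dnmt3l, the cofactor of the de novo enzymes, went the other way. It lay at 9.28, 9.23 and 9.24 in het ΔG ES and 8.73, 8.66 and 8.66 in RA, and at 9.69, 9.68 and 9.69 in het ΔPG ES and 8.62, 8.62 and 8.65 in RA. It fell in all 4 lines, with differences of -0.57 in het ΔG, -0.54 in hom ΔG and -0.61 in hom ΔPG (limma adjusted p = 2.88e-07, 5.11e-08 and 2e-06) and of -1.06 in het ΔPG (3.28e-08). The 3 smaller falls came to 1.46-fold to 1.53-fold and did not pass the limit of 0.5 after quantile normalization (-0.42, -0.37 and -0.45), while the sign was kept. The exons of Dnmt3l overlap those of Aire, on the opposite strand, over 2.24% of their length, and reads were counted by strand.

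The TET genes showed the largest differences of the set in het ΔG, hom ΔG and hom ΔPG, while in het ΔPG the fall of Uhrf1 (-1.60) was larger than those of Tet1 (-1.32) and Tet2 (-1.53). That order in het ΔPG depended on the processing. With the GC trend removed the falls were -1.38 (Uhrf1), -1.57 (Tet1) and -1.70 (Tet2) in het ΔPG. With quantile normalization they were -1.34, -1.19 and -1.37. Tet1, which is bound to CpG-rich promoters in ESCs, lay at 10.48, 10.49 and 10.47 in het ΔG ES and at 8.23, 8.21 and 8.16 in RA. In hom ΔG it lay at 10.35, 10.31 and 10.34 and then at 8.08, 8.22 and 8.10. The difference was -2.28 in het and -2.20 in hom ΔG, a decrease of 4.85-fold and 4.59-fold ( limma adjusted p = 1.56e-13 and 1.55e-16). In ΔPG, which was normalized on its own, the ES values lay at 9.61, 9.66 and 9.70 in het and 10.06, 10.00 and 10.00 in hom cells. The RA values in ΔPG, 8.41, 8.28 and 8.33 and then 8.47, 8.26 and 8.27, overlapped between het and hom. The falls there were -1.32 ± 0.040 and -1.69 ± 0.056 (2.49-fold and 3.22-fold; limma adjusted p = 1.68e-07 and 7.49e-10).
Tet2, the TET enzyme without a CXXC domain, ran close to Tet1. It lay at 10.59, 10.58 and 10.62 in het ΔG ES and 8.21, 8.42 and 8.40 in RA, and at 10.79, 10.82 and 10.79 in hom ΔG ES and 8.44, 8.49 and 8.53 in RA. No sample of the 2 conditions overlapped, and the falls were -2.25 ± 0.055 and -2.31 ± 0.041 (4.77-fold and 4.96-fold; limma adjusted p = 1.46e-12 and 6.35e-18). In ΔPG the differences were -1.53 in het and -1.79 in hom cells (2.89-fold and 3.45-fold; limma adjusted p = 8.48e-09 and 1.57e-10), from 10.20, 10.27 and 10.22 to 8.70, 8.69 and 8.69 and from 10.40, 10.42 and 10.51 to 8.75, 8.59 and 8.63.
Tet3 was the lowest member in ES and rose. It lay at 4.49, 4.32 and 4.78 in het ΔG ES and at 6.16, 6.11 and 6.40 in RA, and at 4.74, 4.64 and 4.95 in hom ΔG ES and 6.47, 6.56 and 6.36 in RA. In ΔPG it lay at 4.57, 4.59 and 4.67 in het ES and 6.43, 6.45 and 6.29 in RA, and at 4.25, 4.45 and 4.79 in hom ES and 6.44, 6.34 and 6.09 in RA. The groups did not overlap in any line, and the rise was 1.70 ± 0.13, 1.68 ± 0.115, 1.78 ± 0.074 and 1.79 ± 0.149 in het ΔG, hom ΔG, het ΔPG and hom ΔPG (limma adjusted p = 1.06e-07, 7.66e-10, 7.57e-07 and 1.44e-06), or 3.21-fold to 3.46-fold. Among the members called in all 4 lines its response varied least between lines and had the largest standard errors.
Tdg, the glycosylase downstream of the TET enzymes, was called in no line. Its group means were 6.98 to 7.23 in ES and 7.28 to 7.41 in RA, and its differences of 0.13, 0.18, 0.30 and 0.12 stayed under the limit in het ΔG, hom ΔG, het ΔPG and hom ΔPG. The 95% intervals reached from -0.10 to 0.44 over the 4 lines, so the smallest change among the TET genes, 1.32 in size, lay outside them. RA and ES samples overlapped in het ΔG and hom ΔPG. Tdg shares 27.1% of its 50-base words with Gm5806 (rlog 4.35 to 5.33) and 12.6% with Gm9855 (6.01 to 6.61), so its value is less certain than those of the other members. It also shares 6.58% with Glt8d2, which overlaps it on the opposite strand (rlog at most 0.24).

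Tet3 made up a larger share of the summed TET level after RA, and Tet2 kept the largest share. For this comparison rlog values were reduced by log2 of the exonic length in kb, so that the genes can be compared with each other, with the limits that rlog pulls low genes together and that the exonic length is the union over isoforms. On this per-length scale Tet2 exceeded Tet3 by 6.34 ± 0.21 (SD, n = 3) log2 units in het ΔG ES and by 2.39 ± 0.16 in RA. The gap in hom ΔPG was 6.22 ± 0.22 in ES and 2.64 ± 0.15 in RA. As a share of the summed per-length level of the 3 TET genes, Tet3 made up 0.785%, 0.877%, 1.18% and 0.917% in het ΔG, hom ΔG, het ΔPG and hom ΔPG ES cells, and 10.9%, 12%, 10.1% and 9.72% after RA. Tet2 held the largest share in all 8 groups, 63.0% to 69.5% in ES and 56.9% to 60.3% in RA, and Tet1 kept a share of 28.9% to 36.3%. The per-length log2 difference of Tet1 minus Tet2 was -1.25 to -0.80 in the ES groups and -1.03 to -0.82 in the RA groups.

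**Figure D3:**
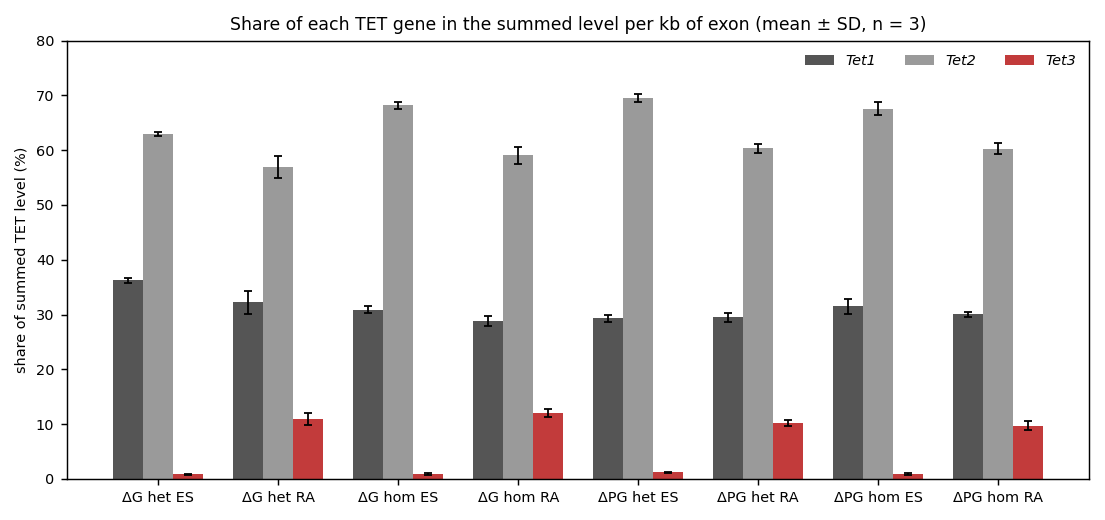
Bars give the share (%, y axis) of Tet1, Tet2 and Tet3 in their summed level per kb of exon in each of the 8 groups (x axis), as the mean of 3 samples with the SD. The share of Tet3 is 0.785% to 1.18% in the 4 ES groups and 9.72% to 12% in the 4 RA groups.

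Per length, Uhrf1, Dnmt1, Dnmt3l, Tet2, Tet1 and Dnmt3b were the first 6 in this order in all 4 ES groups, and Tet3 was last in all 8. In het ΔG ES the per-length levels were 8.97 for Uhrf1, 7.93 for Dnmt1, 7.68 for Dnmt3l, 7.40 for Tet2, 6.60 for Tet1, 5.64 for Dnmt3b, 4.73 for Tdg, 3.93 for Dnmt3a and 1.06 for Tet3. No neighbours in this order had overlapping samples there or in hom ES cells of either line. In het ΔPG ES, Tet1 and Dnmt3b overlapped (5.78 and 5.76), and so did Dnmt3a and Tdg (4.60 and 4.56). After RA the order changed in the middle. Dnmt3b moved to the fourth place in all 4 lines, and Tet1 dropped to the eighth. Uhrf1, which had exceeded Dnmt1 by 0.98 to 1.11 log2 units in ES, exceeded it by 0.05 to 0.16 in RA, and their samples overlapped in het ΔG RA. Tet2 and Tdg overlapped there too. Dnmt3a and Tet2 had overlapping samples in het ΔG, hom ΔG and hom ΔPG RA cells (5.29 and 5.14, 5.28 and 5.29, and 5.31 and 5.46). The gap of Dnmt3l over Dnmt3a closed from 3.47 to 3.83 in ES to 1.80 to 1.99 in RA.

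Next, hom cells, with no intact 5430416N02Rik allele, were compared with het cells, where a difference by genotype cannot be told apart from one between clones. No member was called in any of the 4 comparisons. In ΔG ES cells 0 of 9 were called (all genes, 0.354% higher and 0.63% lower), and in ΔG RA cells 0 of 9 (0.676% and 1.46%). In ΔPG ES cells 0 of 9 were called (6.87% and 6.29%), and in ΔPG RA cells 0 of 9 (0.241% and 0.605%). Except in ΔPG ES, the background corresponds to less than 1 gene in 9. At an unadjusted limma p under 0.05 the counts were 4, 5, 6 and 3 members in ΔG ES, ΔG RA, ΔPG ES and ΔPG RA. Over all genes this limit was passed by 3406 and 4322 of 22048 in ΔG ES and ΔG RA. In ΔPG ES and ΔPG RA it was passed by 8432 and 3069 of 21979. Among genes of mean rlog 3 or more, fitted on their own, 2954 and 3544 of 11997 passed it in ΔG ES and ΔG RA. In ΔPG ES and ΔPG RA 7779 and 2573 of 11904 such genes did. Without the limit on the size of the difference, limma gave an adjusted p under 0.1 for 528 genes higher and 624 lower in ΔG ES. In ΔG RA these counts were 1070 and 1363, in ΔPG ES 3696 and 4230, and in ΔPG RA 519 and 487. At this limit 2, 3, 6 and 1 members passed in ΔG ES, ΔG RA, ΔPG ES and ΔPG RA cells. In ΔG ES these were Tet2 (0.20, 95% interval 0.15 to 0.25; adjusted p = 0.00342) and Tet1 (-0.14, interval -0.20 to -0.09; adjusted p = 0.0196), with no overlap of samples for either. In ΔG RA they were Uhrf1 (0.20; adjusted p = 0.00457), Dnmt3l (0.16; 0.0839) and Dnmt1 (0.13; 0.0892), and in ΔPG RA Uhrf1 (0.19; adjusted p = 0.00928). In the RA cells the markers of extraembryonic endoderm also differed by genotype, with 3 of 9 lower in hom ΔG and 5 of 9 in hom ΔPG (Lama1, -1.03 and -0.95), and their part in these values was not tested. The intervals of the other members in ΔG ES reached from -0.12 to 0.25 for the methyltransferases and Uhrf1, to 0.27 for Tdg and to 0.58 for Tet3.
In ΔPG ES cells the methyltransferases and Uhrf1 lay lower and the TET genes Tet1 and Tet2 higher in hom than in het cells. Uhrf1 lay at 10.99 to 11.06 in hom and 11.46 to 11.49 in het cells, a difference of -0.46 ± 0.022 (limma adjusted p = 4.21e-06). Dnmt3l, Dnmt3a and Dnmt1 differed by -0.38, -0.34 and -0.34 (limma adjusted p = 2.25e-05, 0.000542 and 1.75e-05), and Tet1 and Tet2 by 0.36 and 0.22 (9.48e-05 and 0.00157). None of these 6 had overlapping samples, and how common this was over all genes was not counted. Dnmt3b (-0.13), Tet3 (-0.11) and Tdg (0.21) overlapped. The GC content of the genes moved with these differences. Across 11904 genes of this comparison, whose values share the same 6 libraries, Pearson's r between the log2 difference and exonic GC content was -0.705, against 0.006 across 11997 genes in ΔG ES. Tet1 and Tet2 have exons of 43.7% and 45.4% GC and Dnmt1, Dnmt3a, Dnmt3l and Uhrf1 of 51.8% to 54.4%. With a smooth trend of GC removed from each sample, the 6 differences were -0.18 (Uhrf1), -0.14 (Dnmt3l), -0.18 (Dnmt3a), -0.09 (Dnmt1), 0.05 (Tet1) and 0.02 (Tet2). The limma adjusted p was then 2.83e-08 for Uhrf1, 7.84e-04 for Dnmt3l, 0.00219 for Dnmt3a and 0.00659 for Dnmt1. It was 0.222 for Tet1 and 0.685 for Tet2. Dnmt3b and Tet3, with a GC content of 52.5% and 53.3%, differed less than the other GC-rich members (-0.13 and -0.11 before this step). The interval of Dnmt3b was -0.28 to 0.01, and that of Tet3 was wide (-0.45 to 0.22).

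Whether RA acted differently in hom and het cells was tested as the interaction of genotype and treatment, with all 12 samples of the line. In ΔG no member was called (all genes, 1.19% higher and 1.18% lower). An unadjusted limma p under 0.05 was reached by 3 members and by 3234 of all 22048 genes. Among genes of mean rlog 3 or more, fitted on their own, it was reached by 2539 of 11997. An adjusted p under 0.1 was reached by no member, and by 589 genes higher and 575 lower. The intervals of the difference were narrow for Tet1 (-0.06 to 0.22), Tet2 (-0.20 to 0.08) and Uhrf1 (0.00 to 0.21). In ΔPG 1 member was called (6.72% higher and 7.19% lower over all genes). This was Uhrf1, whose RA effect was -1.60 in het and -0.95 in hom cells, a difference of 0.65 ± 0.038 (limma adjusted p = 4.27e-08). Dnmt3a lay just under the limit (0.497 ± 0.070; limma adjusted p = 0.000112), Dnmt3l and Dnmt1 gave 0.45 and 0.41, and Tet1 and Tet2 -0.37 and -0.26. Tet3 did not differ measurably (0.01, 95% interval -0.37 to 0.40). This comparison holds the same ES samples as the one of hom with het ES cells, and its differences ran with exonic GC content too (r = 0.695 across 11904 genes). With the GC trend removed, Uhrf1 gave 0.37 and was not called, and 0 of 9 members were called. The limma adjusted p was still under 0.1 for Uhrf1 (7.86e-09), Dnmt3a (0.35, 2.85e-04), Dnmt1 (0.17, 9.47e-04) and Dnmt3l (0.22, 0.00573). It was 0.539 for Tet1 (-0.06) and 0.531 for Tet2 (-0.05).

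Genes that work with these enzymes were followed in lists chosen by function. Their counts stand beside the 42.6% to 49.4% of genes of mean rlog 3 or more that RA called in either direction, and beside 16.5% to 18% of all tested genes called higher and 11.3% to 13.6% called lower. Of 10 partners in maintenance and imprint protection, 5 to 6 fell and 1 rose under RA in each line (median -0.61 to -0.40; over all tested genes the median was 0.01 to 0.04). The riser was Uhrf2, the paralog of Uhrf1, at 1.66, 1.73, 1.35 and 1.41 in het ΔG, hom ΔG, het ΔPG and hom ΔPG. Zfp57, the zinc finger protein that guards imprints, fell (-1.80, -1.92, -1.27 and -1.40). Hells, a chromatin remodeler needed for methylation, fell in het ΔG (-1.04), hom ΔG (-0.82) and hom ΔPG (-0.76), and Lig1, the ligase of replication that binds UHRF1, fell in all 4 lines, furthest in het ΔPG (-1.22). Of 16 chromatin guides and regulators of de novo methylation, 4 to 6 rose and 3 to 4 fell, and no change of the list as a whole is read from these counts. Suv39h1, a histone H3 lysine 9 methyltransferase, rose by 2.1, 2.5, 1.8 and 1.7, and Whsc1, a histone H3 lysine 36 methyltransferase (NSD2), by 1.58, 1.49, 0.94 and 1.10 in the same order. Prdm14, which represses the de novo enzymes in ESCs, fell (-3.91, -3.44, -3.26 and -3.38), and so did Morc1, a silencer of transposons in the germline (-4.13, -3.89, -2.98 and -3.52).
Of 8 methyl-CpG readers, 4 rose in each line, among them Mbd2 (0.72 to 1.34), Zbtb33 (0.65 to 1.44) and Zbtb4 (0.59 to 1.22), and Zbtb38 fell in 3 lines. Of 10 TET partners and suppliers of the cofactor 2-oxoglutarate, 3 to 4 fell in each line and 1, Cxxc4, rose in het ΔG only. Rest, a repressor of neuronal genes that binds TET3, fell (-1.37, -1.32, -1.10 and -1.01), and the isocitrate dehydrogenase genes Idh1 and Idh3a fell in all 4 lines (Idh1, -0.58, -0.96, -0.51 and -0.64), with Idh2 called in het ΔPG only (-0.78). The smallest of these falls lie at the limit of 0.5.
Among 17 genes of base excision repair and deamination, which act after TDG or on the base itself, 2 to 3 rose and 4 to 8 fell. Gadd45g rose by 0.91, 1.57, 1.60 and 1.54 and Gadd45a by 0.75, 0.56, 0.92 and 0.96, both stress-inducible factors linked to demethylation, and the uracil glycosylase gene Smug1 rose in het and hom ΔG (0.52 and 0.62). Apobec2 and Apobec3, of the cytidine deaminase family, fell (-1.72 to -1.42 and -1.74 to -1.41), and so did the uracil glycosylase gene Ung (-1.62 to -0.98). The larger count in het ΔPG (8 lower) became 5 with the GC trend removed. Of 15 genes listed around the supply of the methyl donor, not all of them suppliers, 8 to 9 fell in each line (median -0.80 to -0.64) and Ahcyl1 rose. Tdh, the threonine dehydrogenase that feeds one-carbon metabolism in mouse ESCs, fell (-5.20, -5.47, -4.37 and -4.18), the largest fall in these function lists in every line, and Bhmt, which makes methionine from betaine, fell too (-2.02 to -1.59).
Germline genes that promoter methylation is known to keep silent moved in both directions. Of 18, 7 to 9 rose and 2 to 5 fell, beside the same 42.6% to 49.4% of expressed genes, so that no change of the list as a whole is read from these counts. Ddx4, a germline RNA helicase, rose by 2.1, 2.38, 2.18 and 1.75 and Tdrd1, a Tudor protein of the piRNA pathway, by 1.89, 1.95, 1.55 and 1.93. Taf7l, a testis paralog of a general transcription factor, rose by 1.39 to 1.67. Hormad1, a meiotic chromosome protein, fell (-1.99, -1.77, -0.76 and -2.05), and so did Tuba3a, a testis tubulin (-1.54 to -1.18), while Sycp3, of the synaptonemal complex, fell in 3 lines and furthest in hom ΔPG (-1.26). In ΔPG ES cells 4 of these genes lay higher in hom than in het cells (Sycp3 1.25, Hormad1 1.11, Sycp1 0.91 and Dazl 0.88) and 2 lower. With the GC trend removed none of the 18 was called there, and the values were 0.35, 0.22, -0.11 and 0.09. Between hom and het cells the other function lists held no call in ΔG ES or ΔPG RA and 1 in ΔG RA (Gadd45g, 0.54). In ΔPG ES they held Hells (0.85) and Zbtb33 (0.73) as the largest rises and Ehmt2 (-0.61) among the falls, and with the GC trend removed these were 0.19, 0.09 and -0.14. In all, the 6 other lists held 4 genes called higher and 4 called lower there, beside 6.87% and 6.29% of all tested genes, and 1 higher (Mbd2, 0.63) and 1 lower (Bhmt, -0.59) with the GC trend removed. Neither of these had been called without that step (0.48 and -0.35). DNA methylation itself was not measured in these samples.

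For the 6 members whose group means spanned at least 1 log2 unit in at least 1 of the 2 tables, the genes with the most similar profile over the 24 samples were looked up among 11765 genes, as the root mean square difference of the values centred within each table. Nearest to Tet2 were Myst4 (0.114), Msh6 (0.120) and Tet1 (0.136), and nearest to Tet1 were Gcnt2 (0.120), Msh6 (0.129) and Myst4 (0.133). Tet1 and Tet2 thus had 2 of 3 neighbours in common. Nearest to Tet3 were Edn1 (0.159), Cald1 (0.170) and Gstm5 (0.193), and nearest to Dnmt3a Fgfr1 (0.107), H13 (0.107) and Lin28a (0.113). Uhrf1 lay nearest to Yars (0.082), Pwp2 (0.086) and Pif1 (0.092), and Dnmt3l to Mybbp1a (0.059), Psmc3 (0.072) and Tuba1c (0.076).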

How the data were processed

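RNA-seq values of 24 samples were used. The deposited numbers are log2 expression values after a regularized log (rlog) transformation, with the 12 ΔG and the 12 ΔPG samples in a table each. Per the labels and methods, the authors aligned 100 bp reads to NCBI37/mm9 with TopHat2 2.1.0, removed duplicates with Picard, counted reads by strand per gene name with HTSeq 0.6.0 on GENCODE models, and applied DESeq2 1.14.1 size factors and rlog. Whether rlog used the groups is not stated. The values carry no counts, so depth is unknown, no counting interval is given, and small differences of low genes are pulled in. Genes that varied in a table (22048 in ΔG, 21979 in ΔPG) were tested with limma 3.58.1 in R 4.3.3 (lmFit, eBayes with a variance trend) on the 6 samples of a comparison or, for the interaction, on 12. Nothing says that the replicates are separate derivations of a line, so p-values measure the spread between cultures.

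The alternatives were stricter limits, no limit on the difference, a mean rlog of at least 3, no variance trend, quantile normalization, removal of a lowess trend (span 0.3) with exonic GC content per sample over genes with a mean rlog of at least 3, a replicate block, all 12 samples in 1 fit, and leaving out each replicate. Shared exonic words of 50 bases, exon overlaps and per-kb levels were computed on NCBIM37 with GENCODE vM1. Promoter windows came from RefSeq on GRCm38.p6 (Python 3.11.15, pandas 2.3.3), in which all 9 members matched by symbol. The fits were tested on simulated data. The members and gene lists were chosen with earlier results of these data known. Named were all members, the called list genes with the largest rises and falls (at most 2 each per list and comparison, further ones after values were seen), and the nearest profiles. The authors' 4C-seq regions were not used, and 2 list genes were not analysed here. Single values of some list genes are not reported here.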

Additional observations from a re-analysis of the deposited data

Results flagged for a closer look

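Some results on the members stood out as differing between groups. In ES cells, Dnmt3l lay 0.14 higher in hom than in het ΔG samples and 0.38 lower in ΔPG samples (-0.38), without overlap of samples in either. The limma adjusted p was 0.145 in ΔG, which passed no limit used here, and 2.25e-05 in ΔPG. Tet1 moved oppositely, with -0.14 in ΔG and 0.36 in ΔPG (limma adjusted p = 0.0196 and 9.48e-05), again without overlap. The 2 tables were normalized separately, so these differences between ΔG and ΔPG were not tested. In ΔPG cells with the GC trend removed the values were -0.14 for Dnmt3l and 0.05 for Tet1 (limma adjusted p = 7.84e-04 and 0.222).

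The fall of Uhrf1 under RA was smaller in hom than in het ΔPG cells by 0.65 (limma interaction over 12 samples, adjusted p = 4.27e-08). It was 0.37, under the limit of size, with the GC trend removed (limma adjusted p = 7.86e-09). In ΔG cells the same difference was 0.11 (limma adjusted p = 0.31).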

How the results depend on the processing

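The calls of Tet1, Tet2, Uhrf1, Tet3 and, outside het ΔPG, Dnmt3a under RA were kept in all 15 alternatives per line. Without the limit on the difference, 2, 6, 3 and 1 members had an adjusted p under 0.1 between hom and het cells in ΔG ES, ΔPG ES, ΔG RA and ΔPG RA, and 7 in the ΔPG interaction. Over all 21979 genes of the ΔPG interaction, 3342 higher and 3045 lower passed at this limit. At an unadjusted limma p under 0.05, 7 members passed in the ΔPG interaction. Among genes of mean rlog 3 or more, fitted on their own, 6545 of 11904 did. Quantile normalization gave 1 call in ΔPG ES (Uhrf1, -0.51). The ΔPG interaction gave 0 calls with the GC trend removed, and 1 to 2 when single replicates were left out. The second call was Dnmt3l (0.51) without hom RA replicate 1 and Dnmt3a (0.51 to 0.54) without het ES replicate 1, hom ES replicate 3, het RA replicate 3, or hom RA replicate 2 or 3. Stricter limits (adjusted p under 0.05, fold over 1.5) lost Dnmt3l in both ΔG lines, and Dnmt1 and Dnmt3a in het ΔPG.

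Signs turned for values that had not been called. With quantile normalization Dnmt1 under RA was 0.039 (het ΔG), 0.16 (hom ΔG) and 0.12 (hom ΔPG), Dnmt1 in hom against het ΔG ES -0.019, and Tet3 in the ΔPG interaction -0.012. With the GC trend removed, with or without a replicate block, Dnmt3b and Tet3 in hom against het ΔPG ES were 0.059 and 0.12, and Tet3 in the ΔPG interaction -0.21. Leaving out single replicates turned the sign of 12 small differences, which then ranged as follows. Under RA, Tdg in hom ΔPG ranged from -1.25e-04 to 0.207. In hom against het ES cells, Dnmt1 ranged from -0.012 to 0.026 and Dnmt3a from -0.0022 to 0.127 in ΔG, and Tet3 from -0.26 to 0.011 in ΔPG. In hom against het RA cells, Dnmt3a ranged from -0.075 to 0.036 in ΔG, and in ΔPG Tet1 ranged from -0.075 to 0.029, Tdg from -0.019 to 0.070 and Tet3 from -0.172 to 8.51e-04. In the interactions, Tet3 ranged from -0.137 to 0.089, Tdg from -0.039 to 0.159 and Dnmt3l from -0.0037 to 0.058 in ΔG, and Tet3 from -0.11 to 0.161 in ΔPG.

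Same-numbered replicates did not pair, with correlations of their deviations from the group means of -0.026 to 0.085. A replicate block gave 7, 6, 7 and 6 calls under RA (het ΔG, hom ΔG, het ΔPG, hom ΔPG), 0 in each comparison of hom with het cells, and 1 in the ΔPG interaction, or 0 with the GC trend removed as well.

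Over all genes, removal of the GC trend left 535 higher and 330 lower calls in ΔPG ES (1510 and 1383 without it) and 434 and 688 in the ΔPG interaction (1476 and 1580). The replicate block left 19 and 25 in ΔG ES (78 and 139) and 27 and 85 in ΔPG RA (53 and 133).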
